A study of Mus musculus with 15 samples.

Results

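To describe what the loss of Trem2 changes in cholesterol-loaded microglia, the 4 Trem2-/- foamy libraries were compared with the 4 WT foamy libraries, which are 8 of the 15 RNA-seq libraries of the study. The members of the comparison were taken from the genotype and treatment labels, and all measured genes entered it. The cells are BV2, an immortalized mouse microglial line. The cells of all 8 libraries had received 20 μg/ml of soluble cholesterol, carried by methyl-beta-cyclodextrin, overnight, and are called foamy. The WT cells (Trem2WT in the labels) carry an intact Trem2 gene, and the knockout cells (Trem2KO in the labels) were made by CRISPR in a Cas9-expressing BV2 clone and expanded by limiting dilution, so genotype and clone cannot be told apart. The 7 non-foamy libraries, 3 Trem2-/- and 4 WT, had no cholesterol added and were used to share the estimate of spread and to ask where the genotype difference depended on cholesterol. The plots use KO_F and WT_F for Trem2-/- and WT foamy cells, and KO_NF and WT_NF for the non-foamy ones.

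Trem2 is a surface receptor of microglia and other macrophages that binds lipids, lipoproteins and debris of dying cells. It has almost no cytoplasmic tail and signals through the adaptor Tyrobp (DAP12), which recruits the kinase Syk and from there phospholipase C, PI3-kinase and ERK. Mice without Trem2 form fewer lipid-associated macrophages around amyloid plaques and in lipid-rich tissue. Cholesterol esters that a macrophage takes up in lipoproteins are freed in the lysosome, whereas the cells here were given soluble cholesterol. Free cholesterol is esterified and stored in droplets or exported, and it silences the sterol synthesis genes.

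Each foamy library held 29353996 to 39213324 counted reads. Levels are CPM, counts scaled by library size, with TMM factors that correct for library composition. The line carried the defining RNAs of macrophages: all 13 shared macrophage and microglia markers reached 1 CPM, with a summed level of 12728 to 13995 CPM in Trem2-/- and 8234 to 9807 CPM in WT foamy libraries. Of 8 markers of resident microglia, only 2 reached 1 CPM, and Sall1 and Siglech had no read in any of the 8 libraries, so the line lacks part of the profile its label names. The 6 fibroblast markers had no read either, and the summed neuronal and astrocyte markers reached at most 0.190 and 0.631 CPM. The neutrophil, endothelial, oligodendrocyte and lymphocyte lists each held 1 marker with a mean of at least 1 CPM. Their summed levels were 6.98 to 11.9, 3.75 to 8.79, 0.817 to 2.57 and 0.734 to 3.14 CPM in that order. Replicates of a genotype differed by more than counting error (6.58 to 43.3 chi-square units per gene, where 1 is expected from counting alone), and the largest value was between WT foamy libraries 1 and 3. Nothing in the labels says that the libraries of a genotype came from separate cultures, so p-values measure the spread between these libraries, which may be technical. In bulk RNA, fewer cells of a kind and less RNA per cell cannot be told apart.

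Trem2 itself (chr17:48346401-48354147, plus strand of GRCm38) was measured at 337, 372, 399.6 and 383 CPM in the WT foamy libraries and at 227, 227, 218 and 226 CPM in the Trem2-/- foamy libraries. Every knockout library lay under every WT library (log2 fold change -0.73 ± 0.07 s.e., edgeR adjusted p = 7.1e-08), but 224 CPM of Trem2 RNA remained on average. Counts over a whole gene do not show a small edit in its reading frame, so this level does not measure the loss of the protein. The receptor's adaptor moved the other way, with Tyrobp at 1791, 1730.1, 1773 and 1811 CPM in Trem2-/- and 1107, 1243, 1483 and 1345 CPM in WT foamy cells (log2 fold change 0.46 ± 0.10 s.e., edgeR adjusted p = 0.0011). Of 22 tested members of the Trem2 complex and its signalling, 6 rose and 5 fell (median log2 fold change -0.01, with 5 higher and 8 lower under total-count scaling). These were 27.3% and 22.7% of the members, where all tested genes had 14.3% and 15.9%. Besides Tyrobp, the risers included Ms4a7, a membrane protein of the MS4A family (30.4 ± 4.52 against 10.5 ± 0.292 CPM, log2 fold change 1.53 ± 0.10 s.e., edgeR adjusted p = 1.1e-10), the B cell linker adaptor Blnk (0.75), the adaptor Grb2 (0.49), and the sheddase Adam17 (0.28), where the parentheses hold log2 fold changes here and below. The phosphatase Ptpn6 (-0.43) and the PI3-kinase subunit Pik3cd (-0.35) fell. The lipid phosphatase Inpp5d (-0.14) did not pass the test. Without Trem2-/- library 3 or WT library 1, the number of Trem2 complex genes called lower was 3.

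Across the transcriptome, 4297 of 14237 tested genes were called at an adjusted p under 0.05 in edgeR's quasi-likelihood test. Of all tested genes, 14.3% were higher (2036 genes) and 15.9% were lower (2261 genes) in Trem2-/- foamy cells. Differences were mostly modest: the median absolute log2 fold change of called genes was 0.39, and 409 called genes changed by at least 1 on the log2 scale, 217 up and 192 down. For 28.8% of the tested genes (4097) the 4 knockout libraries all lay on one side of the 4 WT libraries. The split of directions depends on the scaling. With plain total counts, which move the median gene by -0.13 on the log2 scale, 1115 genes were higher and 3666 lower, so counts under that scaling are given beside each gene group. A dashed line in the plot of gene groups marks the share among all tested genes, against which the share of each group is to be read.

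**Figure D1:**
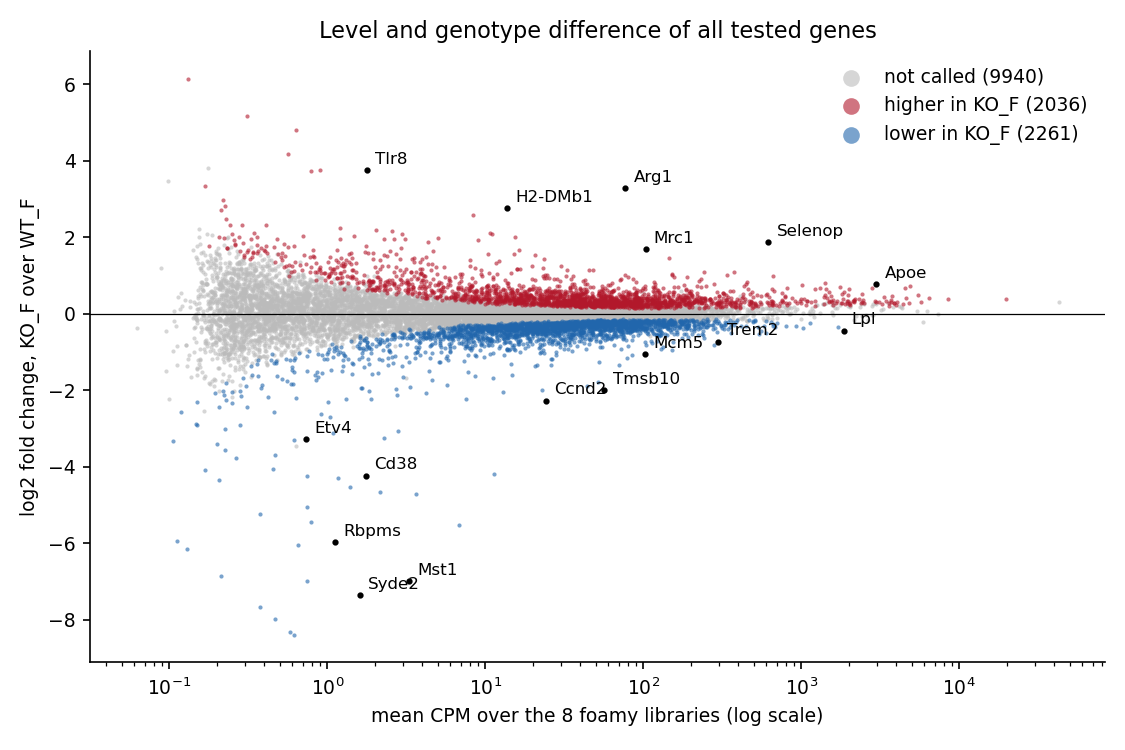
Each point is 1 of 14237 tested genes, with its mean level over the 8 foamy libraries in CPM (log scale) on the x axis and its log2 fold change, Trem2-/- over WT, on the y axis. Called genes are coloured (2036 higher in red, 2261 lower in blue), labelled genes are black, and Syde2, Mst1 and Rbpms are among the largest falls, at low levels, while Arg1 and Selenop rise from well-counted levels.

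**Figure D2:**
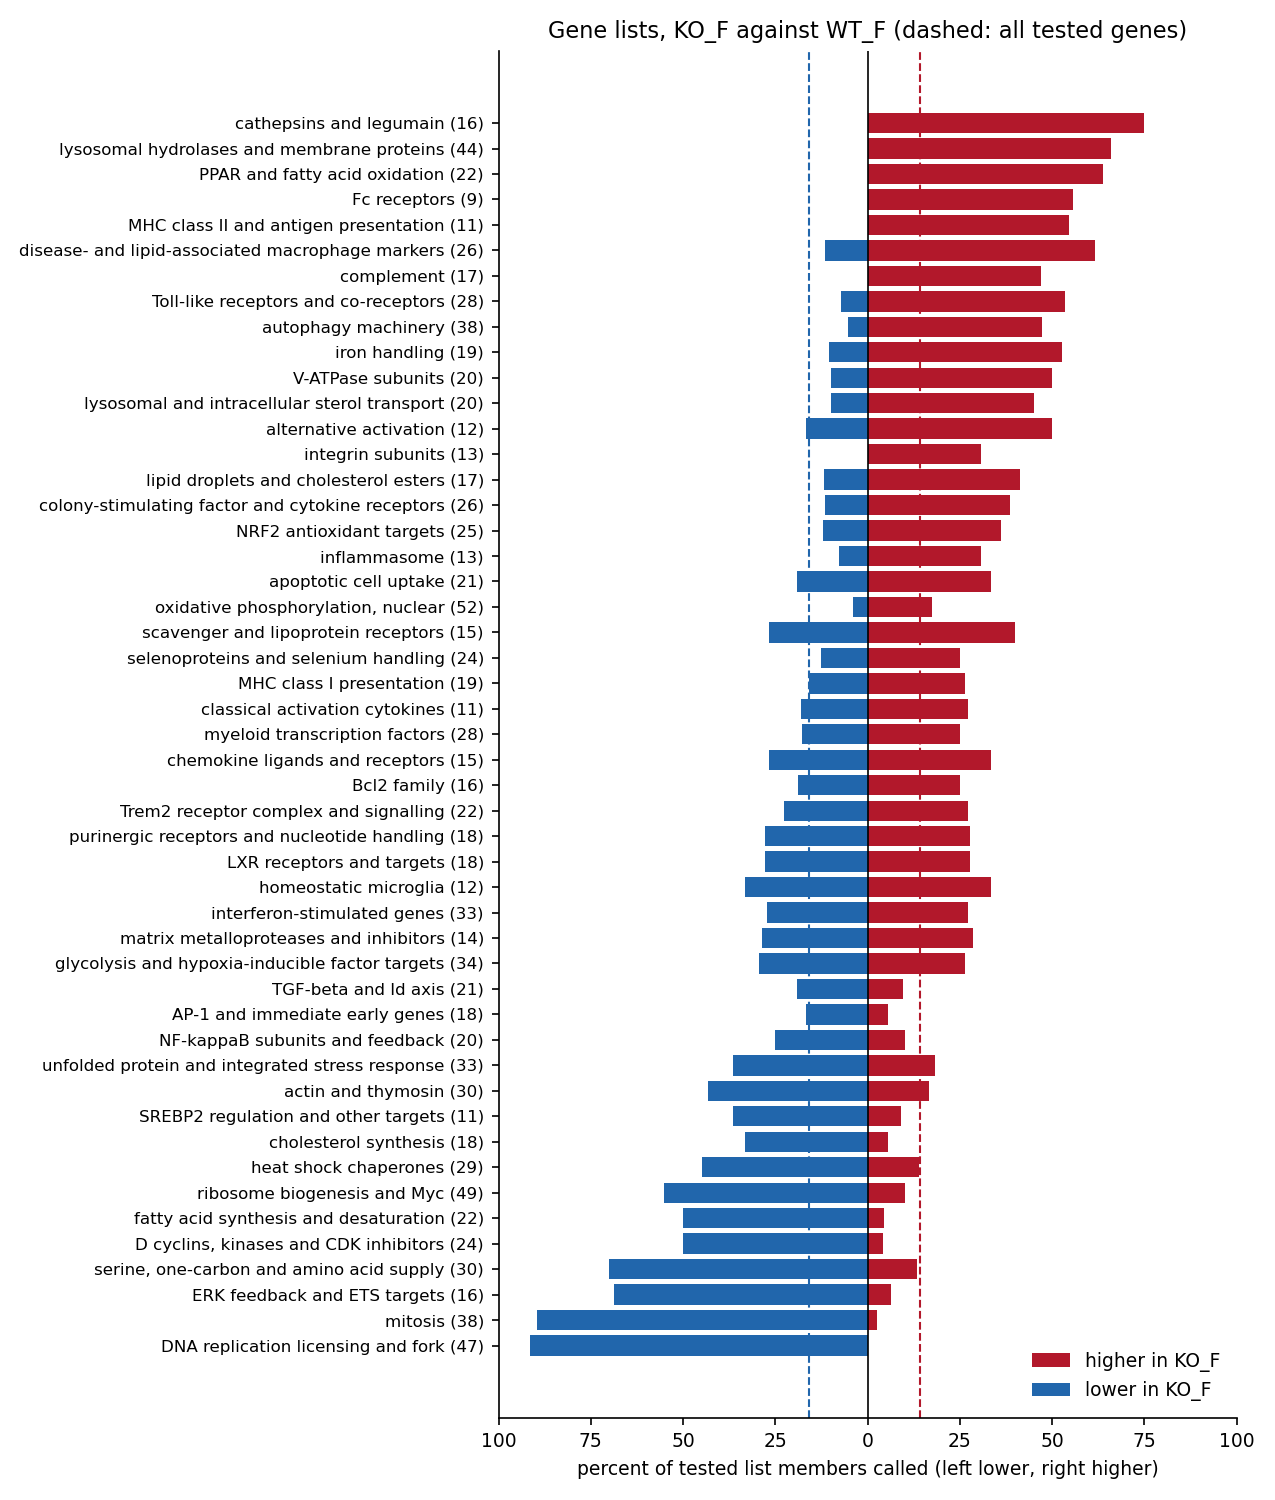
Bars give the percent of tested members of each gene list (number in parentheses) that were called lower (left) or higher (right) in Trem2-/- foamy cells, and dashed lines mark the share of all tested genes, 15.9% and 14.3%. DNA replication and mitosis lie at the bottom and cathepsins, lysosomal proteins and fatty acid oxidation at the top.

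The largest rises were in genes of pathogen sensing, arginine use and antigen processing. Arg1, the arginase that marks alternatively activated macrophages, was at 13.8, 14.04, 14.5 and 14.7 CPM in WT and 138, 141, 130.3 and 148 CPM in Trem2-/- foamy libraries, a 9.78-fold difference of the means (log2 fold change 3.29 ± 0.07 s.e., edgeR adjusted p = 8.7e-20). H2-DMb1, a subunit of the chaperone that loads peptides on MHC class II, rose from 3.67, 3.37, 3.49 and 3.58 CPM to 22.96, 24.8, 24.1 and 23.7 CPM (log2 fold change 2.76 ± 0.09 s.e., edgeR adjusted p = 1.7e-15), and 27.9% of its 50-base stretches also occur in another gene, so its level is uncertain. Acp5, the tartrate-resistant acid phosphatase of osteoclasts and lysosomes, was at 2.39, 2.13, 2.75 and 2.404 CPM in WT and 14.9, 15.1, 14.6 and 12.8 CPM in knockout cells (log2 fold change 2.57 ± 0.14 s.e., edgeR adjusted p = 4.8e-12). The rises were ranked among called genes without overlap between the groups, so separation was a condition of the ranking. In Arg1, H2-DMb1 and Acp5 the lowest knockout library exceeded the highest WT library by a multiple. Tlr8, an endosomal RNA sensor, gave 3.31 ± 0.337 against 0.245 ± 0.0592 CPM (log2 fold change 3.75). The other genes among the 12 largest rises were the ether lipid oxidase Agmo (2.23), the matrix protein Adamtsl4 (2.19), the pantetheinase Vnn3 (2.10), the microsomal glutathione transferase Mgst1 (2.07), the selenium-binding protein Selenbp2 (1.99), the amino acid transporter Slc36a2 (1.98), the pseudogene Gm7240 (2.15) and the noncoding 2010320O07Rik (2.03). Selenbp2 shares 50.9% and Gm7240 26.03% of their stretches with other genes.

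The largest falls left little RNA in the knockout line. Tenm4, a teneurin adhesion protein, fell from 17.996, 13.3, 11.5 and 10.4 CPM to 0.556, 0, 0.1899 and 0.371 CPM (log2 fold change -5.53 ± 0.32 s.e., edgeR adjusted p = 2.3e-11). Tmem223, a mitochondrial membrane protein, fell from 19.1, 19.1, 24.5 and 23.3 CPM to 1.75, 0.986, 1.14 and 0.743 CPM (log2 fold change -4.18 ± 0.19 s.e., edgeR adjusted p = 5.9e-13). Cd38, the NAD-consuming ectoenzyme, fell from 3.41, 3.33, 3.55 and 3.06 CPM to 0.167, 0.0636, 0.3797 and 0.0743 CPM (log2 fold change -4.23 ± 0.34 s.e., edgeR adjusted p = 4.6e-09). Separation of the groups was again a condition of the ranking, and in Tenm4, Tmem223 and Cd38 the gap was wide. The macrophage-stimulating protein gene Mst1 (0.0456 against 6.495 CPM), the RNA-binding protein Rbpms (0.0316 against 2.21 CPM), the retinol carrier Rbp4 (0.271 against 6.96 CPM), the kinase Dclk2 (0.164 against 4.13 CPM), the prostaglandin D2 synthase Ptgds (0.112 against 2.67 CPM), the X-linked homeobox gene Rhox5 (0.105 against 2.24 CPM), the matrix protein Aebp1 (0.426 against 4.12 CPM) and the glycosyltransferase Gcnt2 (0.223 against 1.96 CPM) also fell, where values are means in Trem2-/- against WT foamy cells, and Syde2 is described with the genes nearly absent from the line.

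By amount of RNA, the 8 largest gains were, in order, those of the translation factor Eef1a1, Lyz2, the growth-related Tpt1, Ctsk, the ferritin heavy chain Fth1, Ctsb, Apoe and Ctss, and 58.9% of Eef1a1 and 41.96% of Tpt1 stretches occur elsewhere. Lyz2, the macrophage lysozyme, was at 3157, 3779, 4058 and 3689 CPM in WT and 6232, 5624, 5849.8 and 6693 CPM in Trem2-/- foamy libraries (log2 fold change 0.73 ± 0.08 s.e., edgeR adjusted p = 8.3e-07). Ctsk, a collagen-degrading cathepsin, was at 3251, 3696, 3748 and 3398 CPM and 5692, 5430.0, 5412 and 5741 CPM in the same order (log2 fold change 0.66 ± 0.07 s.e., edgeR adjusted p = 2.4e-07). Apoe, the lipid carrier of microglia, was at 2199, 2288, 2120.0 and 2188 CPM and 3852, 3928, 3769 and 3491 CPM (log2 fold change 0.77 ± 0.07 s.e., edgeR adjusted p = 1.6e-08). Gains and losses were ranked among called genes without overlap between the groups, so their separation is no further support. The largest losses included Lpl, the lipoprotein lipase that is itself a marker of lipid-associated macrophages, at 2016, 2187, 2159.5 and 2172 CPM in WT and 1555, 1572, 1502 and 1642 CPM in Trem2-/- cells (log2 fold change -0.44 ± 0.06 s.e., edgeR adjusted p = 6.1e-06). Actb, cytoplasmic actin, was at 674, 695, 677 and 767 CPM and 506, 533, 500.4 and 455 CPM (log2 fold change -0.50 ± 0.07 s.e., edgeR adjusted p = 5.9e-06). The desaturase Scd2, the chaperone Hsp90aa1, the translation factor Eif5a, the histone chaperone Set, prothymosin Ptma and the actin bundler Lcp1 were the others, of which Hsp90aa1 (58.3%), Set (37.3%) and Ptma (26.5%) share stretches with other genes.

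**Figure D3:**
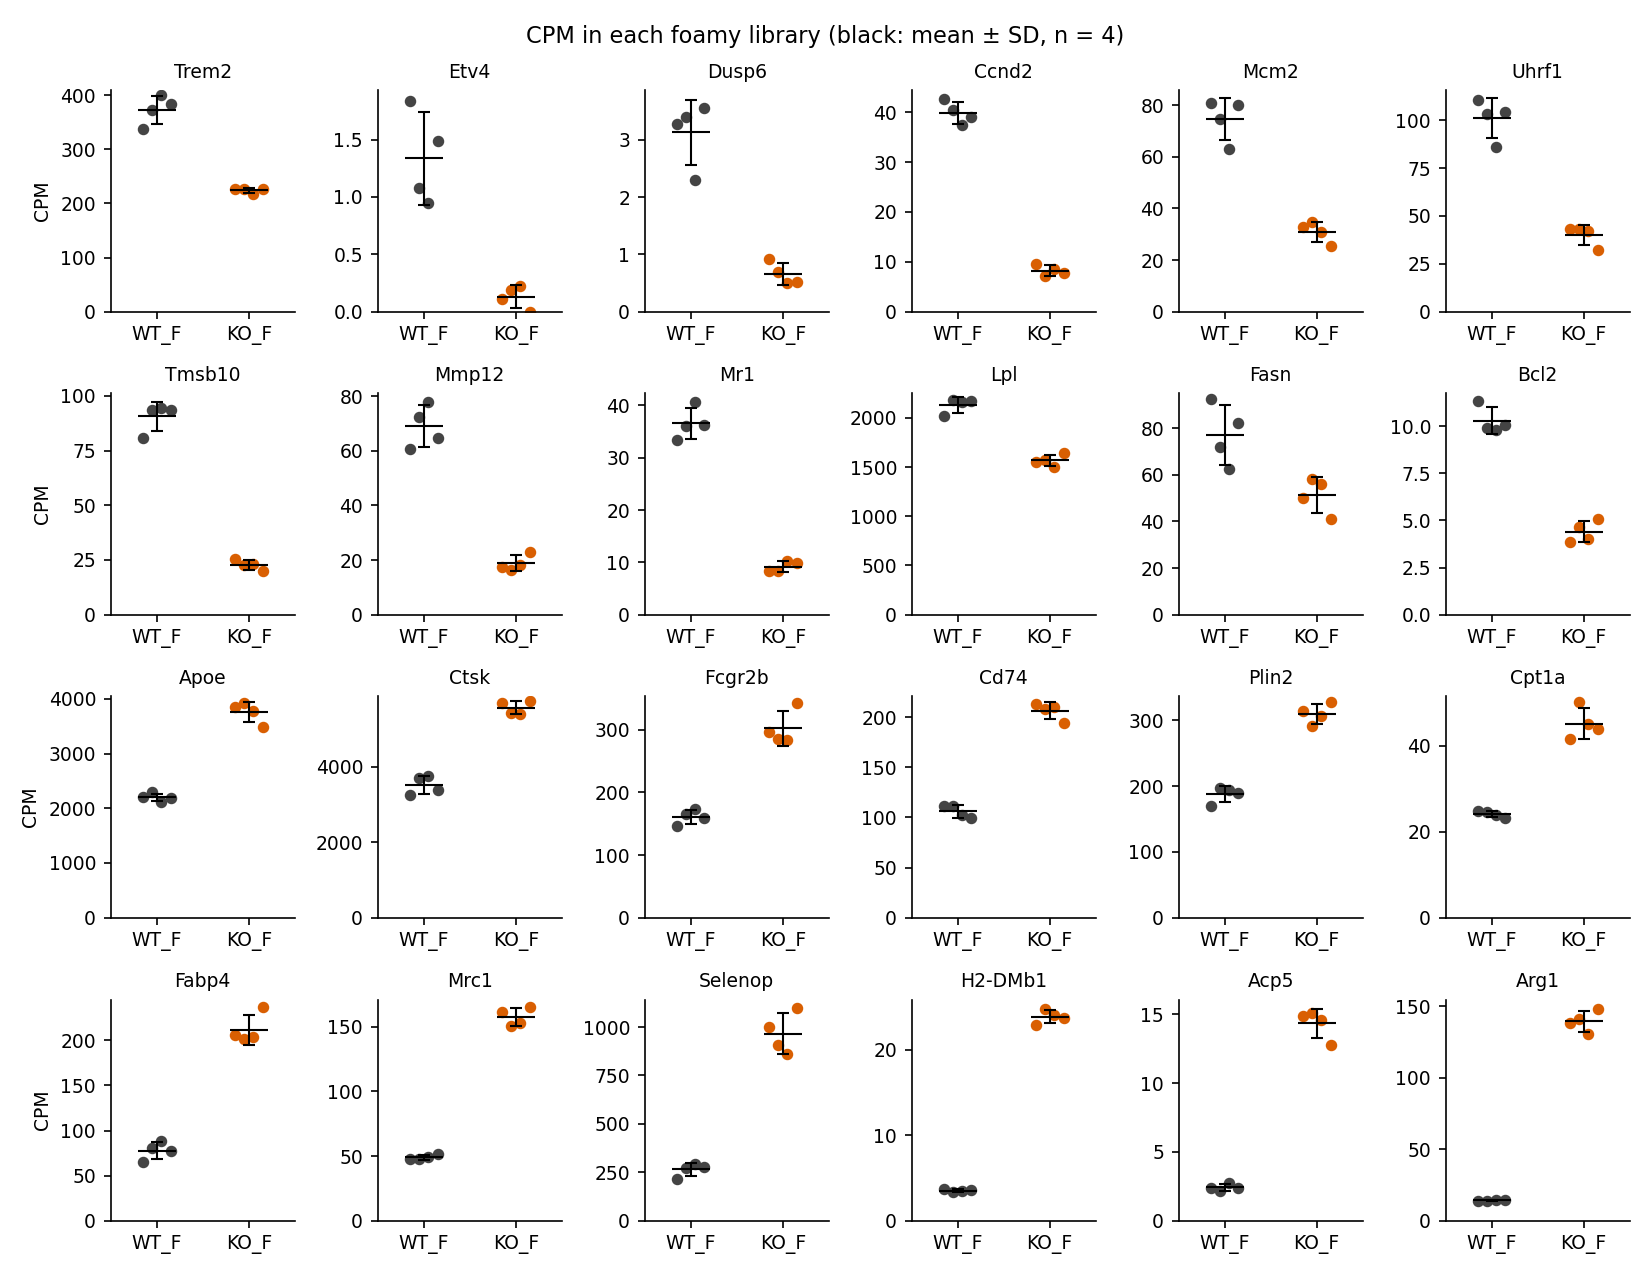
Each dot is the level of a gene in 1 foamy library, in CPM from 0, with the mean and SD of 4 libraries in black, WT (grey) on the left and Trem2-/- (orange) on the right of each panel. The 24 genes were picked with their values known. In all panels the 2 groups are separate, from Trem2 (373 against 224 CPM) to Arg1 (14.3 against 139 CPM).

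Most tested members of a list of ERK feedback genes and ETS targets were lower. ERK activity induces the PEA3 transcription factors Etv1, Etv4 and Etv5 and its own brakes, the Dusp phosphatases and the Sprouty and Spred proteins. Of 16 tested members, 11 fell and 1 rose (median log2 fold change -0.65, with 12 lower under total-count scaling). Etv4 was at 1.84, 1.08, 0.948 and 1.49 CPM in WT and 0.111, 0.191, 0.222 and 0 CPM in Trem2-/- foamy libraries (log2 fold change -3.29 ± 0.41 s.e., edgeR adjusted p = 2.4e-06). Dusp6, the ERK-specific phosphatase, was at 3.29, 3.399, 2.29 and 3.55 CPM and 0.917, 0.6996, 0.506 and 0.5198 CPM (log2 fold change -2.22 ± 0.28 s.e., edgeR adjusted p = 2.3e-06). Etv5 was at 19.5, 18.02, 14.3 and 16.5 CPM and 5.53, 6.297, 5.89 and 3.602 CPM (log2 fold change -1.68 ± 0.15 s.e., edgeR adjusted p = 3.3e-08). No knockout library reached the lowest WT library for any of them, although Etv4 and Dusp6 are scarce RNAs and 26.7% of Etv5 stretches occur elsewhere. Etv1 (-0.82), Spred2 (-0.93), Spred1 (-0.63), Spry2 (-0.53), Dusp1 (-0.83) and Dusp4 (-0.68) fell as well, Spry1 (-0.60) and Dusp5 (-0.02) did not pass, and the survival gene Ier3 (0.26) was the riser. Among 18 immediate early and AP-1 genes, 3 fell (Fos (-1.22) and Jund (-0.59) among them) and the stress factor Atf3 (0.46) rose (median log2 fold change -0.08, with 1 higher and 4 lower under total-count scaling). Id3, an inhibitor of basic helix-loop-helix factors, was at 20.4, 22.5, 23.4 and 22.5 CPM in WT and 5.98, 8.52, 8.16 and 6.87 CPM in Trem2-/- cells (log2 fold change -1.59 ± 0.12 s.e., edgeR adjusted p = 1.2e-09), and 4 of 21 members of the TGF-beta and Id group fell, with Id2 (-0.29) and Skil (-0.37), while Bambi (0.62) and the receptor Bmpr1a (0.20) rose (median log2 fold change -0.11, with 1 higher and 6 lower under total-count scaling). The falls were 16.7% of the AP-1 list and 19.05% of the TGF-beta and Id group, near the 15.9% of all tested genes. The rises, 5.56% and 9.52% in that order, were under the 14.3% of all tested genes. The number of AP-1 genes called higher was 2 without Trem2-/- library 4. The call of Bmpr1a was lost without Trem2-/- library 1 or 4 or WT library 1, 2 or 4 (log2 fold change 0.12 to 0.22). The calls of Ier3 and Bmpr1a were lost under total-count scaling (log2 fold changes 0.13 and 0.07).

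The D cyclins, which carry growth signals to the cell cycle, were lower. Ccnd2 was at 42.6, 40.4, 37.4 and 39.03 CPM in the WT and 9.65, 7.12, 8.54 and 7.69 CPM in the Trem2-/- foamy libraries (log2 fold change -2.27 ± 0.10 s.e., edgeR adjusted p = 5.9e-13). Ccnd1 was at 40.003, 35.5, 32.6 and 37.5 CPM and 17.8, 18.03, 15.6 and 13.1 CPM (log2 fold change -1.17 ± 0.11 s.e., edgeR adjusted p = 3.3e-08). Both groups were tight, and the means differed 4.83-fold and 2.26-fold. With Ccnd3 (-0.58), the E cyclins Ccne1 (-0.55) and Ccne2 (-0.89), Cdk6 (-0.35), Cdk2 (-0.28) and E2f1 (-0.30), 12 of 24 members fell, and the inhibitor Cdkn1b (0.25) (p27) was the only member called higher (median log2 fold change -0.29, with 14 lower under total-count scaling). Cdk4 (-0.09), Cdkn1a (0.01) and Cdkn2a (-0.03) did not pass. Under total-count scaling the call of Cdkn1b was lost (log2 fold change 0.11) and Cdk4 was called lower (-0.22).

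DNA replication was the group with the largest share of falls. Of 47 tested licensing and fork genes, 43 fell (median log2 fold change -0.65, with 46 lower under total-count scaling), and the other 4 did not pass. The Mcm proteins form the helicase ring that is loaded on origins. Mcm2 was at 80.8, 74.5, 62.9 and 80.1 CPM in WT and 32.8, 34.6, 30.9 and 25.4 CPM in Trem2-/- foamy cells (log2 fold change -1.27 ± 0.11 s.e., edgeR adjusted p = 8.1e-09), and Mcm5 at 145, 134, 124 and 152 CPM and 70.2, 74.2, 69.3 and 52.4 CPM (log2 fold change -1.06 ± 0.10 s.e., edgeR adjusted p = 3.3e-08). The other 4 subunits of the ring, Mcm3 (-1.17), Mcm4 (-0.91), Mcm6 (-0.81) and Mcm7 (-0.73), fell too. Uhrf1, which guides maintenance DNA methylation, was at 111, 103, 86.03 and 104 CPM and 43.01, 43.03, 41.96 and 32.1 CPM (log2 fold change -1.33 ± 0.11 s.e., edgeR adjusted p = 4e-09), and Trem2-/- library 4 lay below its 3 partners. The loader Cdc6 (-1.01), the ribonucleotide reductase subunit Rrm2 (-1.18), the origin subunit Orc1 (-1.09) and the helicase Hells (-0.74) followed, whereas Rfc2 (-0.03) and Orc3 (-0.05) did not pass. E2F factors bind such promoters. The letters TTTCCCGC or TTTGGCGC, 2 forms of an E2F motif, were found on either strand in 35.0% of the 40 replication genes with a RefSeq promoter (250 bases before to 50 after the start), in 6.30% of promoters of genes called lower, 2.31% of those called higher and 3.49% of all tested genes. Orc3, which did not pass, also had TTTCCCGC in its promoter. Parts of 4 other replication promoters, all of genes called lower, are shown for the motif. The motif is in capitals, as read 5′ to 3′ on the gene's strand of GRCm38.p6.
Mcm5, chr8:75109324-75109403, plus strand: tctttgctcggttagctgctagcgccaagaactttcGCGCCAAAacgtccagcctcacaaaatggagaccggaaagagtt
Mcm6, chr1:128359772-128359851, minus strand: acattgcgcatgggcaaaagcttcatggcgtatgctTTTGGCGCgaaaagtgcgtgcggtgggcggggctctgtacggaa
Mcm7, chr5:138172005-138172084, minus strand: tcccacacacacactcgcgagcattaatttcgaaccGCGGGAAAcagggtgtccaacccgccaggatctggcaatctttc
Cdc6, chr11:98907977-98908056, plus strand: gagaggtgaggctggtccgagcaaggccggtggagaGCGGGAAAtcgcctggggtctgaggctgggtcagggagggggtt

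**Figure D4:**
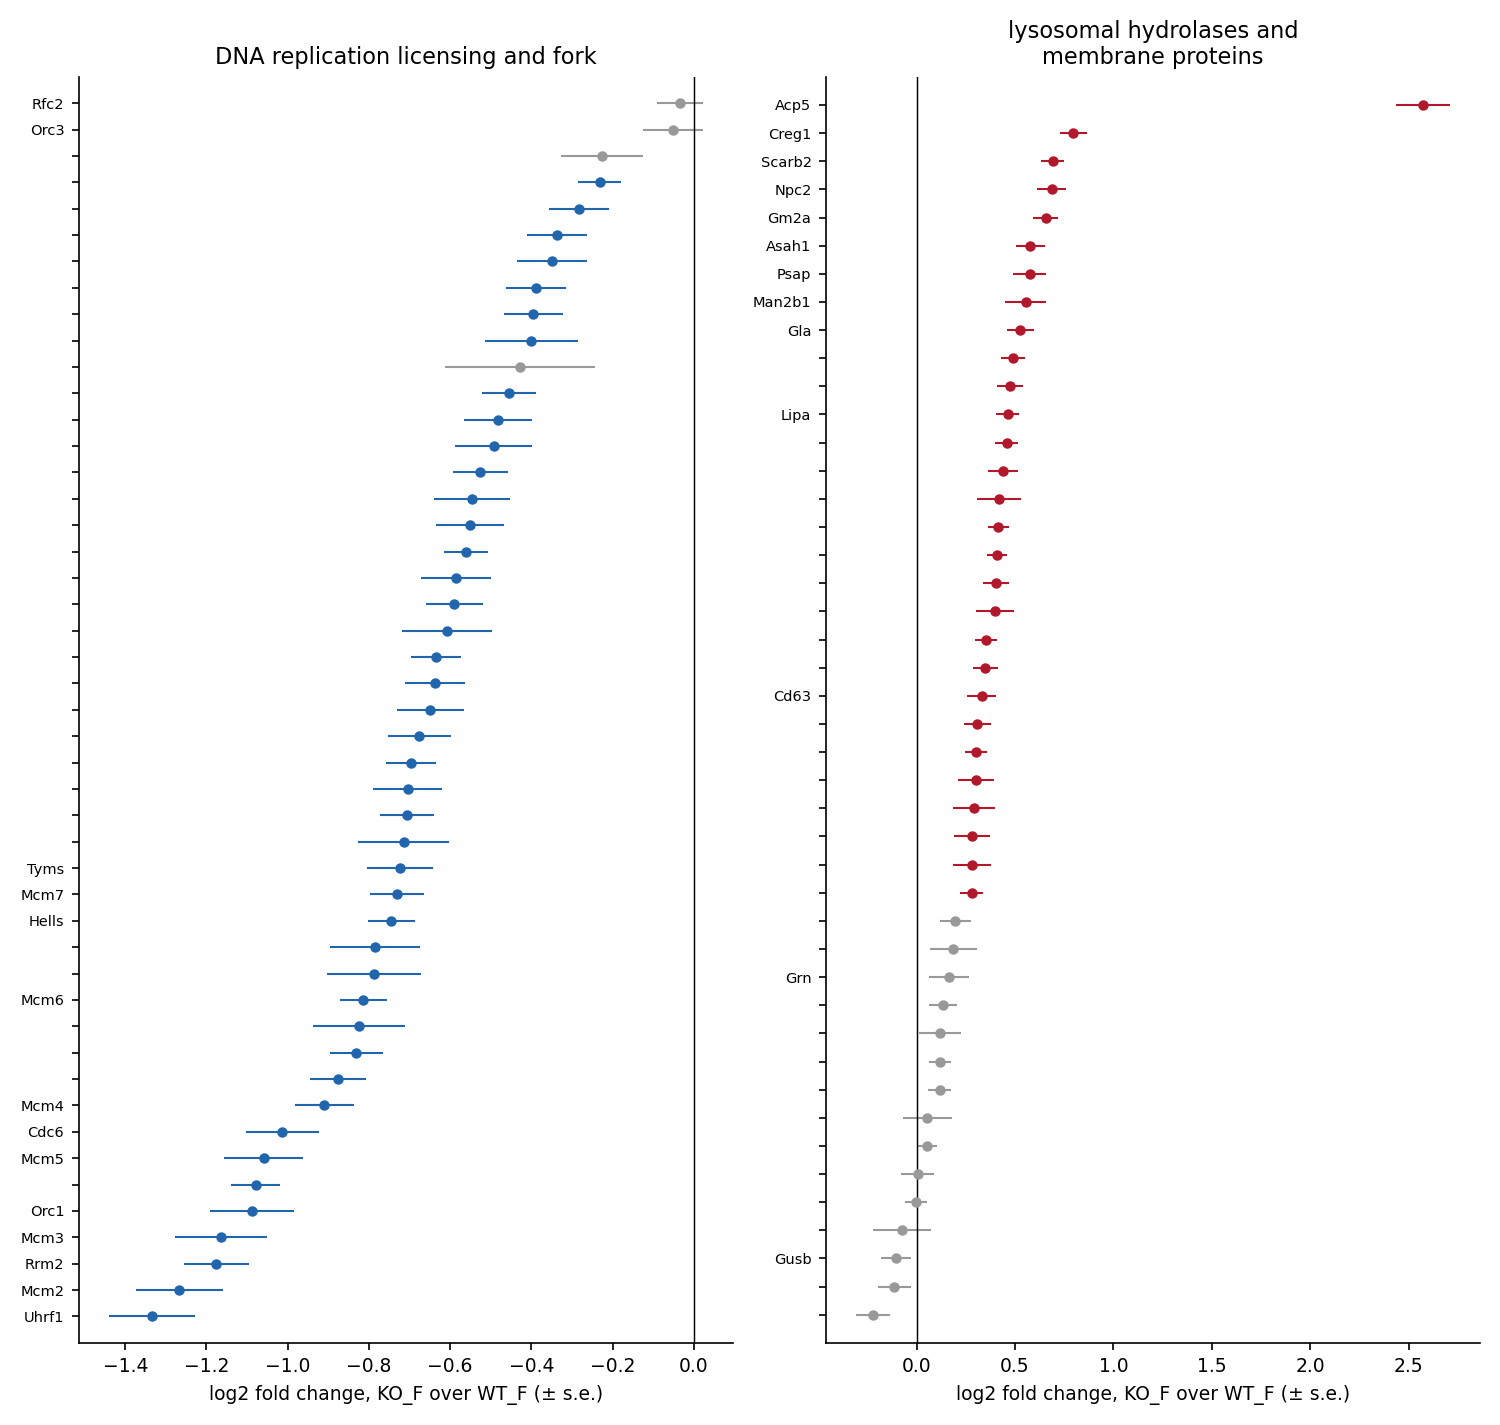
Each point is the log2 fold change of 1 gene, Trem2-/- over WT foamy cells, with its standard error (genes named in the text are labelled), for 47 replication genes on the left and 44 lysosomal genes on the right (red, called higher; blue, called lower; grey, not called). The replication genes reach down to -1.33 for Uhrf1, and the lysosomal ones up to 2.57 for Acp5.

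Genes of mitosis fell by less. Of 38 members, 34 were lower and 1 was higher, with a median of -0.36 on the log2 scale where replication genes had -0.65 (1 higher and 35 lower under total-count scaling). Aurkb, the kinase of the chromosomal passenger complex, was at 39.8, 42.1, 36.7 and 43.8 CPM in WT and 27.4, 28.9, 26.8 and 21.9 CPM in Trem2-/- cells (log2 fold change -0.63 ± 0.09 s.e., edgeR adjusted p = 2.6e-05). Mki67, the proliferation antigen Ki67, was at 432, 368, 371 and 406 CPM and 316, 314, 319 and 291 CPM (log2 fold change -0.35 ± 0.07 s.e., edgeR adjusted p = 0.00063). Plk1, Cdk1 and Cdc20 had log2 fold changes of -0.59, -0.31 and -0.43, all called. The centromeric histone Cenpa was the exception, at 58.4, 56.1, 60.7 and 64.8 CPM in WT and 88.9, 79.4, 79.1 and 80.3 CPM in Trem2-/- cells (log2 fold change 0.45 ± 0.06 s.e., edgeR adjusted p = 6.1e-06). The letters TTTGAA, which make up the cell cycle homology region (CHR) bound by the DREAM and MuvB complexes, were in 74.2% of the 31 mitosis promoters on either strand, against 17.2% for genes called lower, 14.6% for those called higher and 14.8% for all tested genes. They are in capitals in these parts of 3 promoters.
Cdk1, chr10:69352942-69353019, minus strand: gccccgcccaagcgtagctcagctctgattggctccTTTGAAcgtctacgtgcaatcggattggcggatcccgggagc
Cdc20, chr4:118437344-118437397, minus strand: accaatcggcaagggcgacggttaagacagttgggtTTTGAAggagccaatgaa
Mki67, chr7:135716454-135716531, minus strand: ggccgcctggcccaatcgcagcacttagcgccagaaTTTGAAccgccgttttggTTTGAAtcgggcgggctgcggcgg

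The replication-dependent histones, whose RNAs accompany DNA synthesis, did not follow the replication enzymes. Of 29 tested histone symbols of the H1, H2A, H2B, H3 and H4 clusters, a group chosen after its values were seen, 13 were higher and 27 had a log2 fold change above 0 (median 0.73, with 12 higher under total-count scaling). Their summed level was 354.0 to 372 CPM in Trem2-/- and 229.8 to 269 CPM in WT foamy libraries, without overlap. H2bc4 was at 83.7, 98.4, 107 and 101 CPM in WT and 137, 132, 137 and 145 CPM in Trem2-/- libraries (log2 fold change 0.50 ± 0.09 s.e., edgeR adjusted p = 0.00013), and H1f2 at 47.3, 56.97, 52.98 and 46.4 CPM and 73.1, 79.8, 75.9 and 78.8 CPM (log2 fold change 0.59 ± 0.07 s.e., edgeR adjusted p = 2e-06). These genes are close copies of each other, so reads can be split among them, and most lack the poly(A) tail that usual mRNA selection needs.

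Most genes that supply building blocks were lower too. Of 30 genes of serine, one-carbon, polyamine and amino acid supply, 21 fell and 4 rose (median log2 fold change -0.40, with 3 higher and 22 lower under total-count scaling). Mthfd2, a mitochondrial folate enzyme, was at 43.99, 46.6, 45.4 and 51.8 CPM in WT and 22.8, 23.5, 25.1 and 24.8 CPM in Trem2-/- foamy cells (log2 fold change -0.97 ± 0.07 s.e., edgeR adjusted p = 2e-09). Slc7a5, a carrier of large neutral amino acids, was at 33.02, 30.6, 27.9 and 35.1 CPM and 17.3, 16.4, 15.7 and 12.8 CPM (log2 fold change -1.02 ± 0.13 s.e., edgeR adjusted p = 2.5e-06). The polyamine genes moved with a contrast between synthesis and breakdown. Odc1 (-0.86, with 42.1% of its stretches found elsewhere), Srm (-0.67) and Sms (-0.81), which make polyamines, fell, and Sat1, which acetylates them for export, rose from 129, 158, 171 and 160.1 CPM to 335, 303, 304 and 374 CPM (log2 fold change 1.09 ± 0.09 s.e., edgeR adjusted p = 5.2e-09). Thymidylate synthase Tyms (-0.72), Shmt1 (-0.61) and Shmt2 (-0.56) fell and the cystine carrier Slc7a11 (0.50) rose.

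Genes of ribosome biogenesis and the Myc network fell in 27 of 49 cases and rose in 5 (median log2 fold change -0.20, with 4 higher and 37 lower under total-count scaling). Bop1 was at 45.5, 40.8, 35.1 and 42.9 CPM in WT and 23.99, 25.9, 22.3 and 20.6 CPM in Trem2-/- libraries (log2 fold change -0.82 ± 0.12 s.e., edgeR adjusted p = 1.1e-05), and Noc4l (-0.73), Utp20 (-0.66), Nolc1 (-0.51) and Nop56 (-0.38) also fell, while the Myc antagonists Mxd4 (0.69) and Mxd1 (0.43) rose and Npm1 (0.18) did not pass. Of 29 heat shock chaperones, 13 fell and 4 rose (median log2 fold change -0.14, with 1 higher and 21 lower under total-count scaling). The inducible co-chaperones Hsph1 (-0.52), Ahsa1 (-0.38) and Fkbp4 (-0.44) fell with Hsp90aa1 (-0.36), and the constitutive Hspa8 (0.26) (51.1% of its stretches found elsewhere) and Hsp90ab1 (0.21) rose. Of 30 actin and cytoskeleton genes, 13 fell and 5 rose (median log2 fold change -0.15, with 4 higher and 18 lower under total-count scaling). Tmsb10, a thymosin that binds actin monomers, was at 80.9, 93.8, 94.3 and 93.8 CPM in WT and 25.3, 22.6, 23.2 and 19.98 CPM in Trem2-/- cells (log2 fold change -1.99 ± 0.10 s.e., edgeR adjusted p = 3.7e-12), with 44.6% of its stretches found elsewhere. Filamin Flna (-0.76), vinculin Vcl (-0.56) and Marcksl1 (-2.08) fell, and vimentin Vim (0.45) and the motor Myo5a (0.51) rose. Leaving out Trem2-/- library 4 or WT library 1 gave 2 chaperones called higher. The call of Hsp90ab1 was lost under total-count scaling (log2 fold change 0.08).

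In contrast, most lysosomal genes were higher. Of 44 hydrolases and membrane proteins, 29 rose and the other 15 did not pass (median log2 fold change 0.32, with 22 higher and 2 lower under total-count scaling). Creg1, a lysosomal glycoprotein, was at 966, 1077, 1086 and 1019 CPM in WT and 1879, 1761, 1688 and 1873 CPM in Trem2-/- foamy cells (log2 fold change 0.80 ± 0.07 s.e., edgeR adjusted p = 1e-08). Gm2a, the activator of ganglioside breakdown, was at 472, 542, 521 and 494 CPM and 779.5, 785, 788 and 847 CPM (log2 fold change 0.66 ± 0.06 s.e., edgeR adjusted p = 8.1e-08). Knockout libraries exceeded all WT libraries for both. Psap (0.57), the precursor of the saposins, Asah1 (0.58), Man2b1 (0.55), Gla (0.53) and Scarb2 (0.69) rose, and Grn (0.16) (progranulin) and Gusb (-0.10) did not pass. Of 16 cathepsins, legumain and cystatins, 12 rose and 4 did not pass (median log2 fold change 0.41, with 10 higher and 2 lower under total-count scaling). Ctss was at 1942, 2204, 2297 and 2123 CPM in WT and 3470.5, 3327, 3272 and 3698 CPM in Trem2-/- libraries (log2 fold change 0.68 ± 0.08 s.e., edgeR adjusted p = 4.3e-07), and Ctsh (0.77), Ctsl (0.65), Ctsf (0.85), Ctsb (0.48) and Ctsd (0.48) rose, while Ctsc (-0.08) did not pass. The CLEAR letters TCACGTGA, a palindrome to which TFEB and TFE3 bind, were in 3 of 37 lysosomal promoters (8.11%) and 2 of 12 cathepsin promoters, against 2.86% for genes called higher, 1.52% for those called lower and 2.20% for all tested genes. Those of 3 called genes, Gla, Ctsa (0.27) and Ctsd, are shown.
Gla, chrX:134601190-134601255, minus strand: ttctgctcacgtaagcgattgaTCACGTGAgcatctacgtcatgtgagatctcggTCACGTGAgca
Ctsa, chr2:164833724-164833772, plus strand: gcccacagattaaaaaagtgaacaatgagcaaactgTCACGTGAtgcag
Ctsd, chr7:142387883-142387962, minus strand: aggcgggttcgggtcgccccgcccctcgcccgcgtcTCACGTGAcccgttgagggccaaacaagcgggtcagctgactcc
Without Trem2-/- library 2 or WT library 3, the number of lysosomal hydrolases and membrane proteins called lower was 1. Under total-count scaling the call of Ctsa was lost (log2 fold change 0.14).

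The factors that bind this motif did not all pass the test, with Tfeb (0.40) and Mitf (0.30) higher and Tfec (-0.12) not passing. Subunits of the V-ATPase, the lysosomal proton pump, rose in 10 of 20 cases and fell in 2 (median log2 fold change 0.16, with 5 higher and 2 lower under total-count scaling). Atp6v0d2, its myeloid and osteoclast subunit, was at 208, 253, 264 and 227 CPM in WT and 504, 489.9, 468 and 582 CPM in Trem2-/- cells (log2 fold change 1.10 ± 0.08 s.e., edgeR adjusted p = 1.6e-09), whereas the membrane subunits Atp6v0a1 (-0.65) and Atp6v0a2 (-0.42) fell. Of 38 autophagy genes, 18 rose and 2 fell, but total-count scaling left 10 higher and 8 lower (median log2 fold change 0.19). Gabarapl1 (0.67), Atg12 (0.56), Gabarap (0.43) and Atg14 (0.47) rose and Wipi1 (-1.13) and Becn1 (-0.23) fell. Genes of lysosomal and intracellular sterol transport rose in 9 of 20 cases, among them Npc2 (0.69) and Lipa (0.46) (acid lipase), and 2 fell (median log2 fold change 0.16, with 6 higher and 4 lower under total-count scaling). The calls of Tfeb and Mitf were lost under total-count scaling (log2 fold changes 0.27 and 0.17).

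Several Fc receptor and complement genes were higher. Of 9 Fc receptor genes, 5 rose (median log2 fold change 0.75, with 5 higher and 1 lower under total-count scaling). Fcgr2b, the inhibitory receptor, was at 146, 165, 174 and 159 CPM in WT and 296, 286, 285 and 344 CPM in Trem2-/- foamy cells (log2 fold change 0.91 ± 0.07 s.e., edgeR adjusted p = 2.9e-09). Fcgr4, an activating receptor, was at 83.03, 106, 106 and 100.5 CPM and 205, 194, 191 and 227 CPM (log2 fold change 1.05 ± 0.08 s.e., edgeR adjusted p = 4.4e-09). The signalling chain Fcer1g (0.33), Fcgr3 (0.75) and Fcgrt (0.87) rose as well, and Fcgr1 (-0.10) did not pass. Of 17 complement genes, 8 rose (median log2 fold change 0.24, with 6 higher and 2 lower under total-count scaling), with C1qb (1.02), C3 (0.76), C1qc (0.55) and the receptor C3ar1 (0.35). Of 28 Toll-like receptors, co-receptors and related lectins, 15 rose and 2 fell (median log2 fold change 0.28, with 10 higher and 6 lower under total-count scaling). The endosomal receptors Tlr7 (0.43) and Tlr8 and the Tlr4 partner Ly96 (0.73) rose, Cd14 (-0.35) and the adaptor Myd88 (-0.33) fell, and Tlr2 (-0.06) did not pass. Cd74, the invariant chain of MHC class II, was at 111, 112, 102.4 and 99.4 CPM in WT and 213, 209, 210.5 and 194 CPM in Trem2-/- cells (log2 fold change 0.96 ± 0.06 s.e., edgeR adjusted p = 1.8e-10), and 6 of 11 class II genes rose (median log2 fold change 0.34, with 5 higher and 1 lower under total-count scaling). Class I genes were divided, with 5 of 19 higher (H2-D1 (0.58) and B2m (0.53) among them) and 3 lower (median log2 fold change 0.03, with 3 higher and 6 lower under total-count scaling). The class I falls, 15.8%, were near the 15.9% of all tested genes, and the rises, 26.3%, were above the 14.3%. Mr1, which presents vitamin B metabolites, was at 33.5, 36.04, 40.7 and 36.3 CPM in WT and 8.28, 8.3001, 10.3 and 9.84 CPM in Trem2-/- libraries (log2 fold change -1.999 ± 0.10 s.e., edgeR adjusted p = 1.3e-12). The number of class I genes called higher was 3 without Trem2-/- library 2 or 3 or WT library 4.

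Inflammatory genes did not share a direction. Tnf was at 11.1, 10.3, 9.39 and 10.7 CPM in WT and 5.12, 7.12, 5.44 and 4.42 CPM in Trem2-/- foamy cells (log2 fold change -0.91 ± 0.12 s.e., edgeR adjusted p = 6.9e-06). Il1a was at 1.88, 1.64, 1.99 and 1.86 CPM and 7.09, 6.81, 7.56 and 5.72 CPM (log2 fold change 1.89 ± 0.16 s.e., edgeR adjusted p = 1.2e-08). Among 11 classical activation cytokines and enzymes, 3 rose (Il1a and Ptgs2 (0.76) among them) and 2 fell (median log2 fold change 0.03, with 2 higher and 3 lower under total-count scaling), and Il1b (0.35) and Nos2 (-0.07) did not pass. The falls were 18.2% of this list, near the 15.9% of all tested genes, and the rises were 27.3%, above the 14.3%. Subunits and feedback genes of NF-kappaB fell in 5 of 20 cases and rose in 2 (median log2 fold change -0.12, with 1 higher and 5 lower under total-count scaling). Nfkbie (-1.03), Nfkbia (-0.72) and Tnip3 (-0.89) were lower. Tnfrsf9, the receptor 4-1BB, was at 194, 202, 215 and 187 CPM in WT and 97.4, 100.2, 114 and 98.95 CPM in Trem2-/- cells (log2 fold change -0.96 ± 0.07 s.e., edgeR adjusted p = 4.9e-10). Of 13 inflammasome genes, 4 rose (Naip2 (0.47) and Casp1 (0.41) among them) and the sensor Nlrp3 (-0.83) fell (median log2 fold change 0.03, with 3 higher and 2 lower under total-count scaling). The chemokines Ccl2 (-1.57), Ccl4 (-0.89) and Ccl3 (-0.41) fell and Ccl24 (1.44) and Pf4 (0.57) rose, so that 5 of 15 ligands and receptors were higher and 4 lower (median log2 fold change -0.04, with 4 higher and 4 lower under total-count scaling). Interferon-stimulated genes were split, with 9 of 33 higher and 9 lower, and with 5 and 10 under total-count scaling. Samd9l was at 28.4, 33.2, 29.8 and 28.3 CPM in WT and 10.4, 11.4, 11.1 and 13.6 CPM in Trem2-/- libraries (log2 fold change -1.37 ± 0.09 s.e., edgeR adjusted p = 2.1e-10), and Ifi47 (-1.38), Dhx58 (-0.87), Oas3 (-0.84) and Oasl1 (-0.71) fell with it, while Ifi27l2a (1.04), Slfn2 (0.80), Rsad2 (0.73) and Bst2 (0.35) rose.

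Markers of alternative activation rose in 6 of 12 cases and fell in 2 (median log2 fold change 0.56, with 6 higher and 2 lower under total-count scaling). Mrc1, the mannose receptor, was at 47.8, 47.7, 48.98 and 51.3 CPM in WT and 162, 151, 153 and 165 CPM in Trem2-/- foamy cells (log2 fold change 1.69 ± 0.06 s.e., edgeR adjusted p = 8.6e-16). The galactose lectins Mgl2 (1.08) and Clec10a (0.55) and the receptor Il4ra (0.57) rose, and Msr1 (-0.42) fell. Among 26 receptors for colony-stimulating factors and cytokines, 10 rose and 3 fell, but 4 and 4 did so under total-count scaling (median log2 fold change 0.20). Csf1r (0.31), the receptor that microglia need to survive, rose. Leaving out Trem2-/- library 4 or WT library 1 gave 1 alternative-activation genes called lower. Under total-count scaling the call of Csf1r was lost (log2 fold change 0.18).

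Lipid genes divided by function. Of 22 genes that make and desaturate fatty acids, 11 fell and 1 rose (median log2 fold change -0.26, with 1 higher and 15 lower under total-count scaling). Fasn, fatty acid synthase, was at 92.3, 71.9, 62.5 and 82.3 CPM in WT and 50.04, 58.1, 55.95 and 41.03 CPM in Trem2-/- foamy cells (log2 fold change -0.59 ± 0.12 s.e., edgeR adjusted p = 0.00067). Acly (-0.55), Elovl6 (-0.70), Scd2 (-0.33) and Acaca (-0.53, with 52.6% of its stretches found elsewhere) fell, with their activator Srebf1 (-0.64), and Hacd4 (0.90) rose. Of 22 PPAR targets and fatty acid oxidation genes, 14 rose and 8 did not pass (median log2 fold change 0.26, with 6 higher under total-count scaling). Cpt1a, the gate of fatty acids into mitochondria, was at 24.8, 24.7, 23.9 and 23.2 CPM in WT and 41.7, 50.2, 45.2 and 43.9 CPM in Trem2-/- cells (log2 fold change 0.91 ± 0.07 s.e., edgeR adjusted p = 1.9e-09). Fabp4, a fatty acid carrier, was at 64.8, 80.6, 88.5 and 77.1 CPM and 206, 201, 203 and 237 CPM (log2 fold change 1.45 ± 0.08 s.e., edgeR adjusted p = 2.6e-11). Etfdh (0.36), Echs1 (0.37) and Hadh (0.33) rose by smaller amounts, and Acadm (0.06) did not pass. The call of Scd2 was lost without Trem2-/- library 4 or WT library 1 (log2 fold change -0.26 to -0.25).

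Lipid droplet and cholesterol ester genes rose in 7 of 17 cases and fell in 2 (median log2 fold change 0.15, with 7 higher and 6 lower under total-count scaling). Plin2, the coat protein of droplets, was at 170.5, 197, 194 and 189 CPM in WT and 314, 292, 307 and 328 CPM in Trem2-/- foamy libraries (log2 fold change 0.72 ± 0.07 s.e., edgeR adjusted p = 3.8e-08). The lipase Pnpla2 (0.69), Hsd17b11 (0.62), the ester hydrolase Nceh1 (0.43) and the esterifying enzyme Soat1 (0.34) rose, and the acyltransferases Soat2 (-0.67) and Dgat2 (-0.35) fell. Scavenger and lipoprotein receptors rose in 6 of 15 cases and fell in 4 (median log2 fold change 0.31, with 6 higher and 4 lower under total-count scaling), with Cd36 (0.91), Scarb2 and Colec12 (0.54) higher and Lrp8 (-0.50) and Msr1 lower. LXR receptors and targets had no common direction, with 5 higher and 5 lower of 18 (median log2 fold change 0.02, with 4 higher and 5 lower under total-count scaling). Abca1 (-0.04) and Abcg1 (0.02), which export cholesterol, did not pass, at 58.9 against 60.7 CPM and 73.3 against 72.1 CPM in Trem2-/- against WT cells. Apoe and its neighbours Apoc1 (1.41) and Apoc4 (1.59) rose. Of 18 cholesterol synthesis genes, 6 fell, among them Lss (-0.50), Acat2 (-0.53) and Hsd17b7 (-0.48), and Mvd (0.26) rose. Sqle (-0.03) and Hmgcs1 (-0.06) did not pass (median log2 fold change -0.16, with 10 lower under total-count scaling). Of 11 SREBP2 regulators and other targets, 4 fell and 1, the protease Mbtps2 (0.18), rose (median log2 fold change -0.18, with 8 lower under total-count scaling). Without Trem2-/- library 4 or WT library 1, the number of LXR receptors and targets called lower was 2 to 3. The call of Soat2 was lost without Trem2-/- library 2 or 4 or WT library 2 or 3 (log2 fold change -0.62 to -0.56). The call of Dgat2 was lost without Trem2-/- library 2, 3 or 4 or WT library 1 (log2 fold change -0.32 to -0.27). The call of Mvd was lost without Trem2-/- library 2 or 3 or WT library 3 or 4 (log2 fold change 0.21 to 0.25). The call of Mbtps2 was lost without Trem2-/- library 1 or 4 or WT library 1, 2 or 4 (log2 fold change 0.14 to 0.19). The calls of Mvd and Mbtps2 were lost under total-count scaling (log2 fold changes 0.13 and 0.05).

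Genes that mark lipid-associated and disease-associated microglia were mostly higher without Trem2. Of 26 members, 16 rose and 3 fell (median log2 fold change 0.27, with 12 higher and 4 lower under total-count scaling). Clec7a, the beta-glucan receptor, was at 137, 150.4, 178 and 155 CPM in WT and 239, 218, 214 and 267 CPM in Trem2-/- foamy cells (log2 fold change 0.60 ± 0.08 s.e., edgeR adjusted p = 1.2e-05). Itgax (0.49), Igf1 (0.58), Lgals3 (0.46), Cd63 (0.33) and Gpnmb (0.32) rose, Lpl and Axl (-2.44) fell, and Spp1, the most abundant of the list, did not pass at 6404 ± 302 against 6116 ± 534 CPM (log2 fold change 0.07). The receptors of apoptotic cells parted, with Axl at 0.0595 against 0.352 CPM and Mertk (0.50) higher, and 7 of 21 uptake genes rose and 4 fell (median log2 fold change 0.08, with 4 higher and 4 lower under total-count scaling), among them the engulfment adaptor Elmo1 (-0.65). Homeostatic microglial genes ranged from scarce to abundant RNAs. P2ry12 (-1.12) and Olfml3 (-2.33) fell from means of at most 1.76 CPM, Tmem119 (-0.31) did not pass, and 4 of 12 members (Csf1r, Mertk and Gpr34 (0.66) among them) rose while 4 fell (median log2 fold change 0.08, with 3 higher and 4 lower under total-count scaling). Of 28 myeloid transcription factors, 7 rose (Bhlhe40 (0.37), Maf (0.34) and Zeb2 (0.31) among them) and 5 fell (median log2 fold change -0.02, with 3 higher and 7 lower under total-count scaling), with Mef2c at 148, 148, 145 and 139.7 CPM in WT and 101.9, 96.8, 93.1 and 105 CPM in Trem2-/- libraries (log2 fold change -0.55 ± 0.06 s.e., edgeR adjusted p = 7.5e-07). Spi1 (0.06), the gene of PU.1, did not pass. The myeloid factors were 25% higher and 17.9% lower, where all tested genes had 14.3% and 15.9%, so the falls were near the general share. The number of homeostatic genes called lower was 1 to 2 without Trem2-/- library 2 or 4 or WT library 1, 3 or 4. Leaving out Trem2-/- library 3 or 4 or WT library 2 gave 1 disease-associated markers called lower. The call of Axl was lost without Trem2-/- library 2, 3 or 4 or WT library 2 (log2 fold change -2.45 to -2.04). Under total-count scaling the call of Gpnmb was lost (log2 fold change 0.19).

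Stress and energy genes moved in part. Of 33 genes of the unfolded protein and integrated stress response, 12 fell, with the ER chaperones Hyou1 (-0.61), Sdf2l1 (-0.63), Calr (-0.34) and Hspa5 (-0.21) and the targets of Atf4 Trib3 (-0.82) and Asns (-0.60), and 6 rose, with Atf5 (0.64) and Ddit3 (0.42) (median log2 fold change 0.04, with 3 higher and 14 lower under total-count scaling). Of 34 glycolysis and HIF genes, 9 rose and 10 fell, and 2 and 15 did so under total-count scaling. Hif1a (-0.50), the glucose carrier Slc2a1 (-0.28) and Hk1 (-0.56) fell and Hk2 (0.35) and Bnip3 (0.34) rose. Nuclear genes of oxidative phosphorylation showed 9 rises and 2 falls among 52 (17.3% and 3.85%, where all tested genes had 14.3% and 15.9%). The balance turned under total-count scaling to 5 and 12, as the calls among all tested genes also moved to 1115 higher and 3666 lower. Cytochrome c, Cycs, was at 77.1, 84.4, 90.7 and 109.9 CPM in WT and 54.4, 55.3, 56.5 and 62.6 CPM in Trem2-/- cells (log2 fold change -0.66 ± 0.09 s.e., edgeR adjusted p = 1.2e-05). Without WT library 3, the number of glycolysis and HIF genes called higher was 5. The number of oxidative phosphorylation genes called lower was 1 without Trem2-/- library 2, 3 or 4 or WT library 3 or 4. The calls of Ddit3 and Hk2 were lost under total-count scaling (log2 fold changes 0.29 and 0.22).

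Of 16 Bcl2 family genes, 4 rose and 3 fell (median log2 fold change -0.05, with 3 higher and 7 lower under total-count scaling). These were 25% and 18.75% of the family, where all tested genes had 14.3% and 15.9%, so the falls were near the general share. Bcl2, which blocks apoptosis, was at 11.4, 9.88, 9.81 and 10.1 CPM in WT and 3.84, 4.67, 4.02 and 5.05 CPM in Trem2-/- foamy cells (log2 fold change -1.23 ± 0.13 s.e., edgeR adjusted p = 2.6e-07), and its relative Bcl2l1 at 20.5, 20.4, 18.2 and 18.4 CPM and 11.1, 12.3, 9.81 and 8.99 CPM (log2 fold change -0.87 ± 0.10 s.e., edgeR adjusted p = 6.4e-07). The protective Mcl1 (0.38) and Bcl2l2 (0.43) and the killers Bmf (0.71) and Bcl2l11 (0.29) rose, the killer Bid (-0.53) fell and Bax (-0.05) did not pass. Iron genes rose in 10 of 19 cases and fell in 2 (median log2 fold change 0.26, with 9 higher and 2 lower under total-count scaling), with the exporter Slc40a1 (ferroportin) at 28.5, 30.4, 32.1 and 28.5 CPM in WT and 51.9, 51.8, 51.7 and 58.999 CPM in Trem2-/- cells (log2 fold change 0.84 ± 0.07 s.e., edgeR adjusted p = 1.5e-08). The ferroxidase Cp (1.94), Slc11a1 (0.43), Fth1 (0.42) and Ftl1 (0.51) rose, where 79.3% of Ftl1 stretches occur elsewhere. Selenop, the plasma carrier of selenium, was at 217, 274, 294 and 278 CPM in WT and 998, 908, 861 and 1098 CPM in Trem2-/- libraries (log2 fold change 1.86 ± 0.09 s.e., edgeR adjusted p = 9.2e-13), while 6 of 24 genes of selenium handling rose and 3 fell (median log2 fold change 0.02, with 5 higher and 5 lower under total-count scaling). The selenium group had 25% higher and 12.5% lower, with the falls again near the 15.9% of all tested genes. NRF2 targets rose in 9 of 25 cases and fell in 3, but total-count scaling gave 8 and 8. Hmox1 (0.27), Gstm1 (0.44) and Cat (0.37) rose and Gclc (-0.57) and Txnrd1 (-0.42) fell. Under total-count scaling the call of Bcl2l11 was lost (log2 fold change 0.16).

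Matrix proteases were divided. Mmp12, the macrophage elastase, was at 60.9, 72.5, 77.9 and 64.7 CPM in WT and 17.6, 16.2, 18.4 and 22.98 CPM in Trem2-/- foamy cells (log2 fold change -1.88 ± 0.11 s.e., edgeR adjusted p = 1.5e-11). The inhibitor Timp2 was at 87.9, 91.4, 79.2 and 79.6 CPM and 164, 163, 138 and 138 CPM (log2 fold change 0.83 ± 0.07 s.e., edgeR adjusted p = 5.7e-09). Mmp13 (-3.55), Adam8 (-0.50) and the urokinase Plau (-0.49) fell and Mmp19 (0.49), the urokinase receptor Plaur (0.30) and Adam17 rose, so 4 of 14 members were higher and 4 lower (median log2 fold change -0.02, with 3 higher and 4 lower under total-count scaling). Of 13 integrin subunits, 4 rose (Itgax among them) and the others did not pass (median log2 fold change 0.17, with 2 higher and 1 lower under total-count scaling). Purinergic genes showed 5 rises and 5 falls among 18 (median log2 fold change 0.05, with 2 higher and 6 lower under total-count scaling). The nucleotide receptors P2ry1 (-1.18) and P2rx7 (-0.32) fell and P2rx4 (0.29) and the ectonucleotidase Entpd1 (0.47) rose. Leaving out Trem2-/- library 3 or WT library 2, 3 or 4 gave 2 integrin subunits called higher. Without Trem2-/- library 2, the number of integrin subunits called lower was 1. The number of purinergic genes called higher was 3 without WT library 4. The calls of Plaur and P2rx4 were lost under total-count scaling (log2 fold changes 0.17 and 0.16).

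Several genes were nearly absent from the knockout line. In Trem2-/- foamy libraries, 5 genes had at most 3 reads summed over the 4 libraries and a mean of at least 1 CPM in WT cells, and no gene showed the reverse. Syde2, a GTPase-activating protein gene on chromosome 3, had 2 reads in the knockout libraries and 113, 142, 108 and 113 reads in the WT libraries, so the WT level was 201-fold higher with a 95% counting interval of 55.5 to 1656. Raet1e, a ligand of the NKG2D receptor, had 1 read in the knockout libraries and 57, 45, 54 and 61 reads in WT, with 44.4% of its stretches found elsewhere. Jazf1, a zinc finger gene, had 2 reads in the knockout libraries and 69, 67, 44 and 18 in WT. Egln3, an oxygen-sensing prolyl hydroxylase, had no read in the knockout libraries and 43, 60, 26 and 48 in WT, which is at least 49.1-fold lower when 3 reads over the group are taken as the limit that a count of 0 allows. Hapln4, a hyaluronan link protein, had no read in the knockout libraries and 72, 40, 40 and 35 in WT, at least 51.9-fold lower by the same limit. The genes lie on 5 chromosomes, and the 3 non-foamy Trem2-/- libraries together held 0 reads of Syde2, Jazf1 and Egln3, 1 of Raet1e and 8 of Hapln4. Intervals and limits cover counting error only.

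To ask whether cholesterol changes the genotype effect, the foamy difference was compared with the non-foamy difference in 1 fit. Between the non-foamy genotypes 6207 genes were called, and 3546 genes were called in both comparisons with the same direction. Median log2 fold changes in non-foamy and foamy cells were -0.96 and -0.65 for replication and 0.57 and 0.32 for lysosomal genes. Those of scavenger and lipoprotein receptors were 0.16 and 0.31, larger in foamy cells. The foamy and non-foamy differences were unlike in 518 genes, 3.64% of those tested, by an edgeR adjusted p under 0.05 for the difference itself. This count depended on single libraries and on the tool, at 276 without Trem2-/- foamy library 1, 336 without Trem2-/- foamy library 3, 238 without WT foamy library 2, 294 with the replicate number as a block and 968 with DESeq2. Of these, 358 were also called between the foamy groups, and 331 of those had a smaller genotype difference of the same sign in foamy cells, 8 a larger one of the same sign and 19 the opposite sign. Of the 745 genes called in foamy but not in non-foamy cells, only 16 had a called difference. Among genes called in both tests, the largest differences on one side were 1.85 for Eif3j2, of whose stretches 91.4% occur elsewhere, and 1.70 for Gm36172, followed by sterol synthesis genes. Idi1, which makes the allylic isoprene unit, had a log2 fold change of -0.26 in foamy and -1.96 in non-foamy Trem2-/- cells (difference 1.70 ± 0.14 s.e., edgeR adjusted p = 4.8e-08), and 21.5% of its stretches occur elsewhere. Cyp51 had -0.30 and -1.62 (difference 1.31 ± 0.08 s.e., edgeR adjusted p = 3.1e-09), and Hsd17b7 -0.48 and -1.73. Of 18 cholesterol synthesis genes, 14 had a called difference. The call of Idi1 was lost without Trem2-/- library 1, 2 or 3 or WT library 2, 3 or 4 (log2 fold change -0.27 to -0.21).

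On the other side stood Il1a, with log2 fold changes of 1.89 in foamy and 3.40 in non-foamy cells (difference -1.52 ± 0.25 s.e., edgeR adjusted p = 0.0011), and the endothelial adhesion gene Vwf, with 0.47 and 1.53 (difference -1.07 ± 0.22 s.e., edgeR adjusted p = 0.0075). The pseudogene Ndufa12-ps (77.8% of its stretches found elsewhere), 5830418P13Rik (-0.51 between the foamy groups) and Gm6325 completed it. Of genes not called between the foamy groups, Abca1 and Abcg1 had non-foamy log2 fold changes of 1.27 and 1.22 (differences -1.31 ± 0.14 s.e., edgeR adjusted p = 4.3e-06 and -1.19). Plin2, Cpt1a and Cd36 had larger genotype differences with cholesterol, by 0.63, 0.67 and 0.99 on the log2 scale. Of 47 replication genes 7, of 38 mitosis genes 14 and of 44 lysosomal genes 3 had a called difference. The call of Vwf was lost without Trem2-/- library 2 or WT library 2, 3 or 4 (log2 fold change 0.35 to 0.43). The call of 5830418P13Rik was lost without Trem2-/- library 1 or WT library 1 (log2 fold change -0.43 to -0.40). Under total-count scaling the call of Vwf was lost (log2 fold change 0.33).

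**Figure D5:**
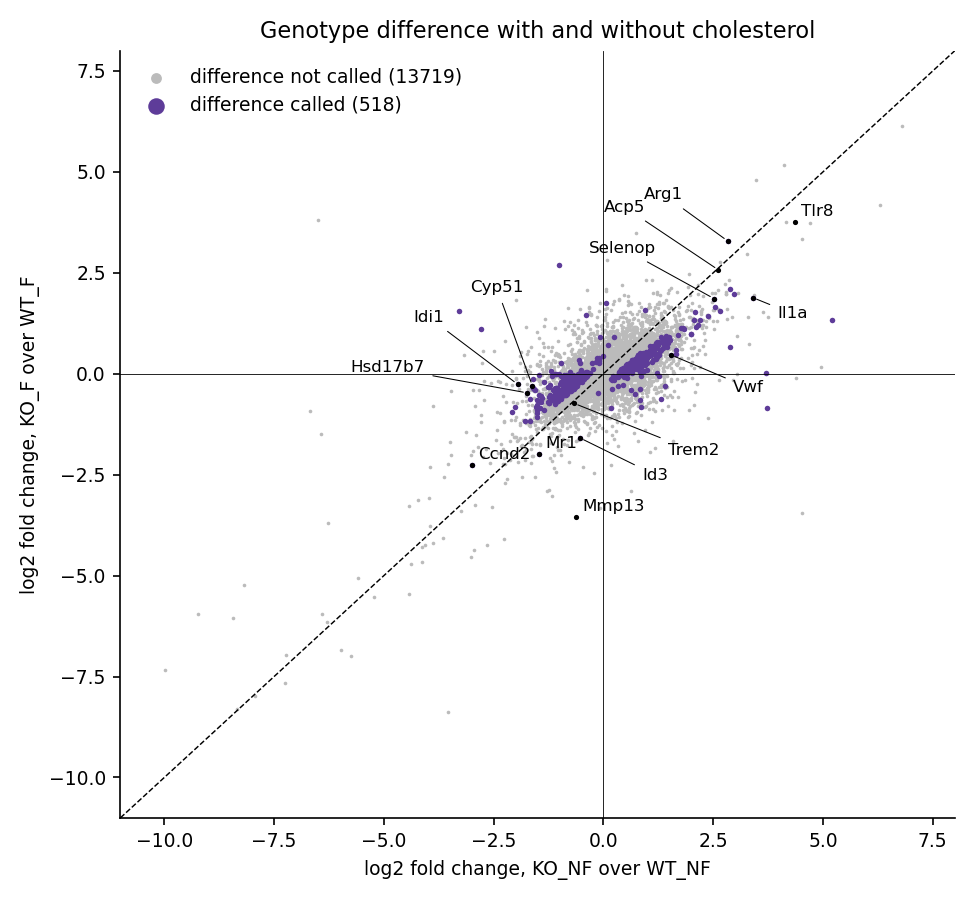
Each point is 1 of 14237 tested genes, with its log2 fold change, Trem2-/- over WT, in non-foamy cells on the x axis and in foamy cells on the y axis, and the dashed line marks equal values. The 518 genes whose 2 differences differ by the test are purple and labelled genes black, with Idi1, Cyp51 and Hsd17b7 above the line and Il1a and Vwf below it.

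By position, no chromosome stood far from 0. Chromosome medians of the log2 fold change ran from -0.06 on chromosome 16 to 0.09 on chromosome 14, the mitochondrial chromosome aside (0.13 over 18 genes), and chromosome 14 had 24.2% of its genes called higher and 9.96% lower. Among 13622 windows of 30 adjacent tested genes, the lowest median, -0.27, was on chromosome 4 from Gm12854 to Kif2c (chr4:116067268-117182639), and the highest, 0.58, on chromosome 13 from Gm11335 to Gm11362 (chr13:23527011-28837724), which holds 20 of the tested histone symbols. Genes called lower had longer exons, with a median of 4618 bases, than genes called higher (3625) or all tested genes (3710), and their median GC content was 49.6%, 48.4% and 49.3% in that order. Pseudogenes made up 6.04% of genes called higher and 1.86% of genes called lower, against 9.44% of all tested genes. Among genes named elsewhere in the text without this remark, over 20% of the 50-base stretches also occur in other genes for Acat2 (45.7%), Bnip3 (21.6%), Ctsd (36.5%), Cycs (28.2%), Gm11362 (38.3%), Gm12854 (80%), Gm6325 (21.5%), Gstm1 (23.4%), H2bc4 (29.7%), Mcm7 (26.03%), Npm1 (40.9%) and Sms (28.6%). More than 20% of exon bases lie within exons of another gene for Becn1 (43.9%), Bnip3 (22.2%), Ccnd1 (23.4%), Ctsd (34.4%), Ctsl (26.9%), Dusp5 (22.1%), Ftl1 (34.6%), Gabarapl1 (28.3%), Jund (52.6%), Mbtps2 (28.4%), Mmp19 (28.3%), P2ry1 (23.1%), Raet1e (22.97%), Spry1 (24.4%) and Vcl (25.5%), and as no strand setting of the counting is stated, their reads cannot be told from those of the overlapping gene.

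Other motifs were searched in the same promoters. CCAATC, the core of the CCAAT box, was in 29.5% of promoters of genes called lower, 23.5% of those called higher and 23.9% of all tested genes, and in 86.7% of the 15 cholesterol synthesis promoters. GCGCATGCG, a form of the NRF1 motif, was in 4.39%, 4.35% and 4.28% in that order. GAGGAAGT, a PU.1 form, was in 3.66%, 4.21% and 4.02%, and CCGGAAGT, a general ETS form that shares GGAAGT with it, in 10.9%, 8.09% and 9.79%. TCACNCCAC, a sterol element form, was in 0.787%, 1.22% and 1.35%. Across the whole RefSeq table of 27025 genes the shares were 1.80% for E2F, 20.2% for TTTGAA and 1.12% for TCACGTGA. A promoter was found for 9754 of 14233 tested symbols, each motif was searched on both strands, and a match says only that the letters are there.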

How the data were processed

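The authors deposited raw read counts per gene for 15 RNA-seq libraries of BV2 microglia, 4 per group except non-foamy Trem2-/- (3). According to the methods of the study, reads were trimmed with Trimmomatic, aligned to GRCm38 (mm10) with HISAT2 and counted with featureCounts within the CHURP pipeline. Tool versions, strandedness and the treatment of multi-mapped reads are not given in the sources used here, and the last 2 can move the level of a gene that overlaps or resembles another. Libraries held 23538963 to 41683825 counts.

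Of 54390 listed genes, 14237 (99.97% of counts) passed edgeR's filterByExpr with a minimum count of 10. Genotypes were compared within foamy and within non-foamy cells, and both effects with each other, in 1 fit of all 15 libraries with edgeR's quasi-likelihood test (edgeR 4.0.16, R 4.3.3), TMM factors of 0.918 to 1.11 and Benjamini-Hochberg adjustment over all tested genes at 0.05. The biological coefficient of variation was 10.2%. On counts simulated for 13960 genes of the foamy comparison, 94% of genes changed by 1 and 69% of those changed by 0.5 on the log2 scale were recovered, and 2.98% of 168 calls were false. Only 100 genes per size were changed, up and down alike, and genes were drawn independently. The simulation held no shift in composition between genotypes, so these shares do not bear on the choice of scaling. Alternatives were DESeq2 1.42.0, RLE factors, total counts, other count filters, the foamy libraries alone, a replicate block, a minimum log2 fold change of 1, each foamy library left out and, added after seeing the data, removal of trends with GC content and length.

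The members, the 49 gene lists and the tests were chosen with earlier results of these data known. Named genes were Trem2, list members, the 12 largest rises and falls in log2 fold change and the 8 largest in CPM among genes called without overlap at a mean of at least 1 CPM, the 5 largest differences between conditions in each direction among genes called both between the foamy groups and for the difference, at the same level, genes with at most 3 reads in 1 genotype and at least 1 CPM in the other, and the ends of extreme windows of 30 genes. Any other named gene was chosen after its values were seen. A few list members are counted but not reported here by name. Coordinates are from GENCODE M21, which matched 99.94% of tested genes, and promoters from RefSeq (GRCm38.p6). Stretches of 50 bases, taken every 10 bases along a gene's longest transcript only, count as shared where a transcript of another gene holds them. Figures were drawn with Python 3.11.15.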

Additional observations from a re-analysis of the deposited data

Results flagged for a closer look

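A library stood apart from the other 3 of its group, by the gap to its nearest neighbour over the range of the group, in 42 of the 640 groups of 4 examined for the genes named here (6.56%), where chance gives about 1 in 20. Values are the level of that library. Trem2-/- foamy library 1 had Atp6v0a2 (11.6 CPM), Cenpa (88.9 CPM), Dgat2 (17.6 CPM) and Syde2 (0.0556 CPM) above its partners. Trem2-/- foamy library 2 had Txnrd1 (54.6 CPM) above its partners and Bid (42.8 CPM) and Orc3 (46.5 CPM) below them. Trem2-/- foamy library 3 had Clec10a (35.9 CPM), Etv1 (7.94 CPM), Fos (2.21 CPM), Jazf1 (0.0633 CPM), Raet1e (0.0316 CPM), Rbpms (0.127 CPM) and Tnfrsf9 (114 CPM) above its partners and Atf3 (243 CPM), Myd88 (24.1 CPM) and Trem2 (218 CPM) below them. Trem2-/- foamy library 4 had Fabp4 (237 CPM), Gm2a (847 CPM), Slc40a1 (59 CPM) and Vnn3 (19.2 CPM) above its partners and Acaca (19.9 CPM), Fkbp4 (146 CPM), Mst1 (0 CPM), Slc2a1 (103 CPM) and Uhrf1 (32.1 CPM) below them. WT foamy library 1 had 5830418P13Rik (5.22 CPM), Bcl2 (11.3 CPM), Hk1 (75.8 CPM) and Slc36a2 (2.78 CPM) above its partners and Blnk (41.2 CPM), Cdk4 (304 CPM), Hspa5 (663 CPM), Lpl (2016 CPM) and Tmsb10 (80.8 CPM) below them. WT foamy library 2 had Lipa (268 CPM) above its partners. WT foamy library 3 had Cdkn1a (52.5 CPM) and Kif2c (46.1 CPM) below its partners. WT foamy library 4 had Cdkn2a (63.8 CPM) and Tlr2 (56.7 CPM) above its partners and Mxd4 (23.6 CPM) and Plaur (37.9 CPM) below them. For Syde2, Raet1e, Jazf1, Rbpms and Mst1 in the knockout group this gap is a few reads, and no result was dropped for it.

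The genotype difference of 79 named genes was not the same with and without cholesterol, by the edgeR test of the difference itself at an adjusted p under 0.05. The values in parentheses are the foamy minus the non-foamy log2 fold change, which was above 0 for the following genes. Sterol synthesis genes were Idi1 (1.70), Cyp51 (1.31), Hsd17b7 (1.26), Mvd (1.22), Acat2 (0.94), Hmgcs1 (0.91) and Sqle (0.83). Cell cycle and nucleotide genes were Ccne1 (0.87), Ccnd2 (0.72), Ccnd1 (0.62), Cdc20 (0.53), Tyms (0.50), Rrm2 (0.49), Cenpa (0.47), Cdkn1a (0.44), Cdk1 (0.41), Kif2c (0.39) and Hells (0.37). Fatty acid and lipid droplet genes were Cd36 (0.99), Cpt1a (0.67), Plin2 (0.63) and Elovl6 (0.55). Growth, chaperone and stress genes were Cycs (0.85), Odc1 (0.59), Mthfd2 (0.54), Sdf2l1 (0.46), Fkbp4 (0.39), Asns (0.39), Ptma (0.39), Bax (0.38), Srm (0.35), Set (0.34) and Nolc1 (0.32). Inflammatory and surface genes were Ccl3 (0.58), Cd14 (0.52), Ccl4 (0.47), Arg1 (0.46) and Ier3 (0.36). The others were Eif3j2 (1.85) and Gm36172 (1.70).

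The same difference was below 0 for another set of genes. Genes of sterol export and lipid handling were Abca1 (-1.31), Abcg1 (-1.19), Apoe (-0.45), Hacd4 (-0.41) and Soat1 (-0.30). Lysosomal, iron and selenium genes were Atp6v0d2 (-0.73), Slc40a1 (-0.68), Selenop (-0.65), Gpnmb (-0.64), Psap (-0.57), Ctsk (-0.47), Ctss (-0.44), Ctsh (-0.43) and Ctsb (-0.38). Inflammatory and interferon genes were Il1a (-1.52), Oas3 (-1.001), Slfn2 (-0.62), Mr1 (-0.53), Atf3 (-0.49), Bhlhe40 (-0.46) and Plau (-0.36). Receptors, adaptors and regulators were Id3 (-1.05), Slc36a2 (-0.98), Vnn3 (-0.77), Id2 (-0.74), Mertk (-0.73), Ms4a7 (-0.55), Timp2 (-0.51), Blnk (-0.51), Colec12 (-0.47), Mcl1 (-0.45), Grb2 (-0.39), Entpd1 (-0.39) and P2rx4 (-0.35). The others were Ndufa12-ps (-1.49), 5830418P13Rik (-1.23), Gm6325 (-1.09), Vwf (-1.07) and H1f2 (-0.72).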

How the results depend on the processing

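The 4297 calls between the foamy genotypes (2036 higher, 2261 lower) became 4680 with DESeq2, 4293 with RLE factors, 4315 without a count filter, 4270 with 10 counts in every library, 4149 in the 8 foamy libraries alone and 5115 with GC and length trends removed, an alternative chosen after seeing the data. Each keeps the total within 1.5 times, as does leaving out each library (3640 to 4192, with 1733 to 1961 higher and 1907 to 2231 lower). A fold minimum and total counts moved the counts further. A minimum log2 fold change of 1 left 409 genes (217 higher, 192 lower), and total counts gave 1115 higher and 3666 lower genes, with 4533 in place of 4097 genes without overlap. The number of genes whose genotype difference depended on cholesterol was the least stable, at 518 in the main setting, 968 with DESeq2, 294 with the replicate block, 45 with the minimum fold change, 1259 with GC and length trends removed and 238 to 661 when a library was left out, where the cause was not tested. The deviations of same-numbered libraries of the 2 genotypes had correlations of -0.11, -0.01, -0.16 and 0.06, and those of other pairs ran from -0.33 to 0.30. So few values cannot tell whether the numbers pair the samples. The replicate block gave 4151 calls (1986 higher, 2165 lower). The range of chromosome medians was 0.152, 0.151 with total counts and 0.133 to 0.162 with a library left out. Of 320 named genes, 309 kept their direction and their side of the threshold in every fit that left out a library, and 289 did so in every alternative except the minimum fold change. The called genes lost when a library was left out or with total counts are given in the report beside their values, and Idi1, Bmpr1a and Mbtps2 were also lost in the foamy libraries alone (log2 fold changes of -0.26, 0.20 and 0.18). Total counts gained 7 named genes, all as lower. They were Bax (-0.18), Cdk4 (-0.22), Ctsc (-0.20), Fcgr1 (-0.23), Gm12854 (-0.56), Rfc2 (-0.16) and Tlr2 (-0.19). No named gene that was called changed sign under any of these alternatives. The balance of calls in oxidative phosphorylation genes turned with total counts (5 higher and 12 lower), in the direction in which all tested genes moved. Genes under 1 CPM rest on few reads, and a difference that did not pass there was not detectable at this depth.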
